A study of Drosophila melanogaster with 6 samples.

Results

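Acyl-CoA binding proteins and fatty acid binding proteins are the small soluble carriers that hold fatty acids inside cells. The set described here has 7 genes of Drosophila melanogaster, chosen by name: Acbp1, Acbp2, Acbp3, Acbp4, Acbp5 and Acbp6, which encode the short acyl-CoA binding proteins, and fabp, which encodes the fly's fatty acid binding protein. They are 7 of the 11982 genes that have a probe set annotated to a single symbol, and each of them has 1 such probe set. Their RNA was measured in whole heads on 6 Affymetrix Drosophila 2.0 arrays, 3 from flies on a normal diet and 3 from flies on a high fat diet. All flies were females of the white-eyed laboratory strain w1118 that were collected at 0-3 days of adult age and kept with w1118 males over 48 hours for mating. They then spent 7 days, in most cases at 23 degrees C, on a yeast, sucrose and cornmeal medium or on that medium with 20% (w/v) coconut oil added, so the diets differ in the oil and share every other ingredient. Each array was hybridised with RNA from a pool of 25 to 50 heads, and the design text calls the 3 samples of a diet biological replicates.

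A fatty acid that enters metabolism is first joined to coenzyme A by an acyl-CoA synthetase. Acyl-CoA binding proteins then hold the resulting acyl-CoA ester, keep its free concentration low and pass it to the enzymes that store, oxidise or elongate it. In mammals the same protein is also known as diazepam binding inhibitor, a source of peptides that act on GABA receptors, and Acbp2 is the fly gene that carries the synonym Dbi. Fatty acid binding proteins are barrel-shaped carriers that hold the free fatty acid before it is activated. Coconut oil is rich in saturated fatty acids of medium chain length.

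By RefSeq's Release 6 annotation the acyl-CoA binding genes are partly clustered. Acbp4, Acbp6, Acbp3 and Acbp2 are 4 consecutive protein-coding genes on chromosome arm 3L. Acbp5 lies elsewhere on 3L within the span of Fhos, a formin gene, Acbp1 lies on 2L, where it overlaps Rbsn-5 and has Piezo next to it, and fabp on 3R shares its annotated span with sea, the mitochondrial citrate carrier gene. No genome build is named for the arrays, so no positions are given, and whether probe sets of these related genes cross-hybridise was not tested.

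The arrays were of similar sensitivity. Background, the 95th percentile on each array of 50 control probe sets for foreign proteins, ranged from 15.2 to 21.8 signal units, with 65.3% to 70.0% of the 18769 probe sets above it. Normal diet replicate 1 stood apart: 36 probe sets were there at least 8-fold above all other arrays, a count that was 0 for each of the other 5 arrays. Normal diet replicates 1 and 3 also shared 51 such probe sets, and the 3'/5' ratio of the actin control Act5C was 20.4 on high fat diet replicate 2 against 10.5 to 13.2 elsewhere. Head tissue itself was measured on every array, with all 11 measured neuronal and all 11 measured glial markers above background on all 6.

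Only 3 of the 7 genes, fabp, Acbp2 and Acbp1, were above background on all 6 arrays. The other 4 were dim: Acbp4 was above background on no array, Acbp3 on 1, Acbp5 on 5 and Acbp6 on 5. None of the 7 passed the test between diets (limma over all probe sets, adjusted p from 0.631 to 0.935), and 0% of all 18769 probe sets passed it. An unadjusted p under 0.05 was reached by 0 of the 7, against 7.86% of all probe sets. The diets did not overlap in 1 of the 7, fabp, against 17.7% of all probe sets, so this count is near the background share. With 3 arrays a diet only large or very even differences can pass, and in whole heads fewer cells of a type and less RNA per cell cannot be told apart.

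**Figure D1:**
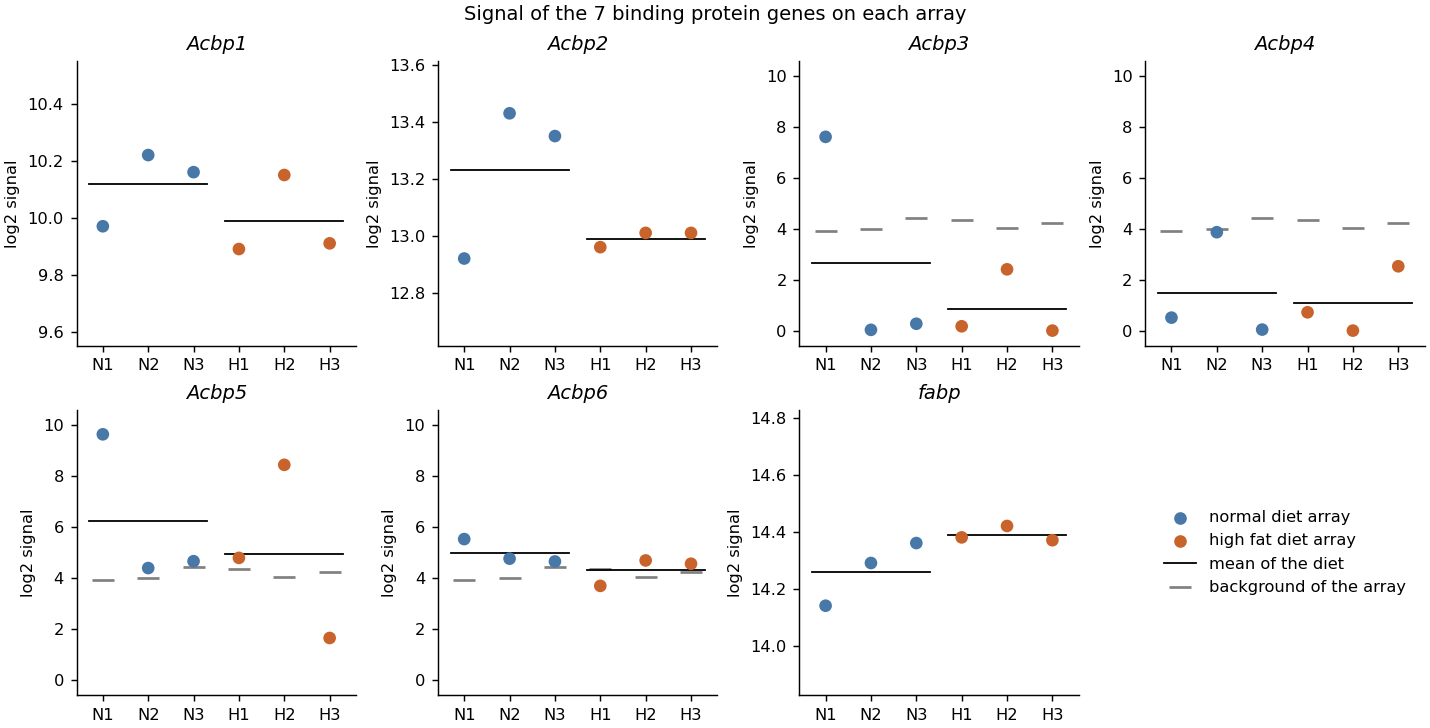
Log2 signal of each gene on the normal diet arrays N1 to N3 (blue) and the high fat arrays H1 to H3 (orange), with the mean of each diet as a black line; panels have their own axis range, and the background of each array is a grey dash where it falls in the range. Acbp1, Acbp2 and fabp vary within 1 log2 unit, while Acbp3 stands out on N1 and Acbp5 on N1 and H2.

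The fatty acid carrier fabp had an even signal in the head. Its signal was 18061, 19987 and 21061 on normal diet replicates 1, 2 and 3 and 21368, 21994 and 21167 on high fat diet replicates 1, 2 and 3. Every high fat value lay above every normal diet value, but the lowest of the first (21167) and the highest of the second (21061) nearly touch. With quantile normalisation the fabp diets overlapped and the change was 0.07, and without normal diet replicate 1 it was also 0.07. In log2 units the normal diet mean was 14.26 ± 0.11 against 14.39 ± 0.03 with high fat food (SD, n = 3 per diet), a change of 0.13 with a standard error of 0.12. That is 1.09 times the normal diet level, with a 95% interval of the ratio from 0.893 to 1.34 (limma adjusted p = 0.723). A second probe set detects fabp together with sea and measured 3002, 3140 and 3351 on the normal diet and 3019, 3374 and 3434 on the high fat diet. There the diets overlapped, and the change was 0.05 (standard error 0.12, limma adjusted p = 0.911).

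Acbp2, the fly counterpart of diazepam binding inhibitor, had the largest estimated change among the 3 genes above background throughout. It measured 7749, 11010 and 10477 on the normal diet and 7952, 8244 and 8223 on the high fat diet. The 3 high fat arrays were nearly equal, 1.04-fold from lowest to highest, while the normal diet arrays spanned 1.42-fold because replicate 1 lay below all the others. The log2 mean was 13.23 ± 0.27 with normal and 12.99 ± 0.03 with high fat food (n = 3 per diet), a change of -0.24 with a standard error of 0.17. The high fat level was thus 0.845 times the normal diet level, with a 95% interval from 0.625 to 1.14 (limma adjusted p = 0.671).

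Normal diet replicate 1 decided the size of the Acbp2 difference. Without that array the change was -0.40 (95% interval -0.73 to -0.07), with an unadjusted limma p of 0.0287 and an adjusted p of 0.732, and the diets no longer overlapped. On the same 5 arrays the diets did not overlap in 3 of the 7 genes, Acbp1, Acbp2 and fabp, against 28.2% of all probe sets, and 6.38% of all probe sets had an unadjusted p under 0.05. Without normal diet replicate 2, in contrast, the Acbp2 change was -0.15. The scaling of the arrays decided its sign: with each array centred on its median the change was 0.03, while the median over all probe sets went from -0.03 to 0.23, and relative to that median Acbp2 stayed lower. With quantile normalisation it was -0.29 (limma adjusted p = 0.576). Acbp2 instead of fabp was then the gene whose diets did not overlap, against 18.2% of all probe sets.

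Acbp1 had a small estimated change. It measured 1005, 1189 and 1143 on the normal diet and 952, 1137 and 964 on the high fat diet, so that the groups overlapped. Its log2 mean went from 10.12 ± 0.13 to 9.99 ± 0.14 (n = 3 per diet), a change of -0.13 (standard error 0.14, limma adjusted p = 0.767). The 95% interval of the ratio ran from 0.717 to 1.17. With median centring the change was 0.14, still below the median over all probe sets of 0.23. Acbp1 and the overlapping gene Rbsn-5, an endosomal trafficking gene at 287, 241 and 353 and then 234, 294 and 259, did not share the order of the arrays.

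**Figure D2:**
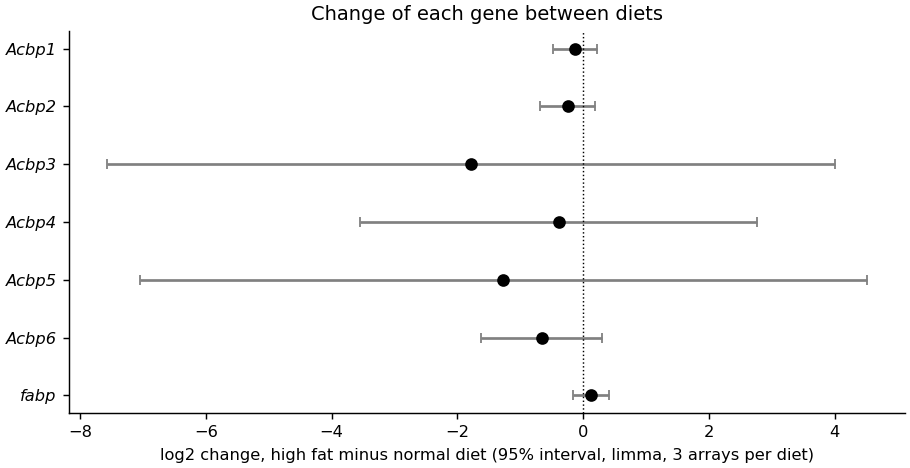
Log2 change of each gene, high fat minus normal diet, with its 95% interval from the limma fit over 3 arrays per diet. The intervals of Acbp1, Acbp2 and fabp lie within 1 log2 unit of 0, those of Acbp3 and Acbp5 reach beyond 4 on either side, and every interval includes 0.

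Because a ratio of signals within an array does not depend on how that array was scaled, each gene was also set against Acbp2 on the same array, with the mean of the normal diet arrays as 0. The fabp to Acbp2 ratio in log2 units was 0.19, -0.17 and -0.02 on normal diet replicates 1, 2 and 3 and 0.40, 0.39 and 0.33 on high fat diet replicates 1, 2 and 3. All 3 high fat arrays lay above all 3 normal diet arrays. The means of the diets differed by 0.37, with an exact two-sided permutation p of 0.1, the smallest that 3 against 3 arrays can give, and 0.6 after adjustment over the 6 ratios to Acbp2. This difference holds the Acbp2 change of -0.24, with its sign turned, beside the fabp change of 0.13. All 6 ratios share Acbp2 as denominator. How often ratios of other genes separate the diets was not tested. Leaving out any 1 array gave differences from 0.29 to 0.47.

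The other ratio between well-measured genes showed no such separation. Acbp1 to Acbp2 was 0.17, -0.09 and -0.08 on the normal diet and 0.06, 0.26 and 0.03 on the high fat diet, a difference of 0.11 (exact two-sided permutation p = 0.4). Normal diet replicate 1 lay within the high fat range, while replicates 2 and 3 lay below it. For Acbp5 and Acbp6, above background on 5 arrays each, the differences in the ratio to Acbp2 were -1.03 and -0.42 (exact two-sided permutation p = 0.7 and 0.6). For Acbp3 and Acbp4, above background on 1 and 0 arrays, a ratio rests mostly or only on values below background and is not read here.

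**Figure D3:**
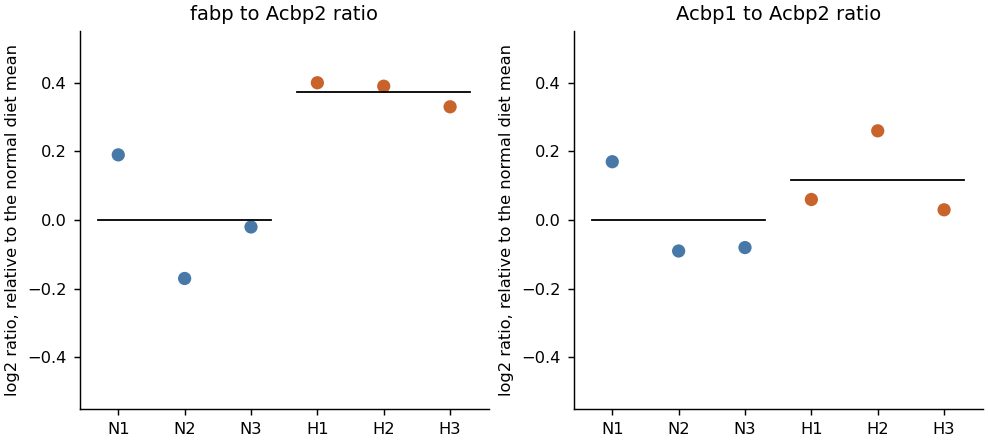
Log2 ratio of fabp (left) and Acbp1 (right) to Acbp2 on each array, relative to the mean of the normal diet arrays N1 to N3; H1 to H3 are high fat arrays and black lines are diet means. For fabp the high fat arrays lie between 0.33 and 0.40, above the normal diet arrays at -0.17 to 0.19, while for Acbp1 the diets overlap.

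Genes with the most similar array profile were sought among 8325 other genes above background on all arrays, by the root mean square difference of their log2 signal, centred on the mean of the 6 arrays. For Acbp2 they were Cyp6g1, a cytochrome P450 known for its role in insecticide resistance (difference 0.0222), and Mpc1, a subunit of the mitochondrial pyruvate carrier (0.0330). Both had the Acbp2 pattern, by which they were picked, with log2 signals of 12.28, 12.72 and 12.70 (Cyp6g1) and 12.05, 12.53 and 12.44 (Mpc1) on the normal diet and 12.26 to 12.33 and 12.08 to 12.20 on the high fat diet. The nearest to fabp were PCB, which encodes pyruvate carboxylase (0.0219), and the yolk protein gene Yp2 (0.0233), and the nearest to Acbp1 were SamDC, a polyamine synthesis enzyme (0.0368), and Der-1, a factor of endoplasmic reticulum protein degradation (0.0435). The median over the genes compared was 0.27 for Acbp2, 0.20 for fabp and 0.22 for Acbp1. The differences of the named genes lie below it by selection, as the smallest among 8325. All these profiles share the scaling of the same 6 arrays.

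Fat body genes showed some of the same array pattern. The fat body, of which a part lies in the head, is the fly's lipid storing tissue. The summed signal of the 11 measured fat body markers was 113488 on normal diet replicate 1, 140981 and 144194 on normal diet replicates 2 and 3, and 128947 to 136841 on the high fat diet, so that replicate 1 was the lowest array here as it was for fabp and Acbp2. A lowest signal on that array was not particular to fat body genes. The glial marker Gs2 (11060) and the midgut marker LManII (3146) were also lowest there. The summed glial signal, in contrast, was lowest on normal diet replicate 3. Among the fat body markers, Lsp2, a larval serum protein gene also active in the adult fat body, was chosen after its values were seen. It measured 17124, 23358 and 24346 on the normal diet and 15979, 15416 and 16942 on the high fat diet, a change of -0.41. Of the other bright markers, Mtp was at -0.31 and bmm at -0.25. Yp1, Yp2 and Yp3 were at 0.12, 0.12 and 0.17, apolpp at -0.01 and FASN1 at 0.01. The diets did not overlap downward in 2 of the 11 fat body markers, Lsp2 and Mtp, against 9.23% of all probe sets. The marker Fbp1, named here with Fbp2 after their values were seen, was below background on every array, and Fbp2 measured at most 21.0. Of the 11 fat body markers 7 averaged lower and 4 higher with high fat food, where 54.3% of all probe sets averaged lower. Their median change was -0.25, with none called. Over the 9 fat body markers above background on all arrays the median change was -0.01. The part of fat body RNA in the values of fabp and Acbp2 was not tested. The 11 glial markers had a median change of 0.04, with 8 higher and 3 lower with high fat food, beside the same 54.3% of all probe sets lower. Their summed signal was 35813 to 37642 on the normal diet and 37876 to 38295 on the high fat diet. The diets did not overlap upward in 1 of the 11, against 8.46% of all probe sets, so this count is near the background share. That marker, repo, the transcription factor of glial identity, was at 0.29 (standard error 0.14). The 11 neuronal markers had a median change of 0.22 and 0 called. With high fat food 10 of 11 averaged higher, while 54.3% of all probe sets averaged lower. The diets did not overlap upward in 5 of the 11, against 8.46% of all probe sets. Their summed signal was 27148, 27511 and 23354 for normal diet replicates 1, 2 and 3 and 28994 to 30132 with high fat food. The part of tissue makeup in the values of the binding protein genes was not tested.

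Acbp5 was uneven within both diets. It measured 802, 21.0 and 25.2 on normal diet replicates 1, 2 and 3 and 27.7, 350 and 3.12 on high fat diet replicates 1, 2 and 3. It was bright on 1 array of each diet and at 27.7 or less on the other 4, so that signals differed 38.1-fold within the normal diet and 112-fold within the high fat diet. The log2 mean was 6.23 ± 2.96 with normal and 4.96 ± 3.41 with high fat food (n = 3 per diet). The change of -1.27 had a standard error of 2.28 and a 95% interval from -7.05 to 4.51 (limma adjusted p = 0.874), and the difference was smaller than the spread within either diet. Its sign depended on single arrays: the change was 0.44 without normal diet replicate 1, 0.39 without high fat diet replicate 3 and -3.01 without high fat diet replicate 2. Fhos, in whose span Acbp5 lies, was even, at 329, 260 and 293 on the normal diet and 326, 322 and 390 on the high fat diet.

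Acbp3 was bright on a single array. Its signal was 197 on normal diet replicate 1, against 1.02 and 1.21 on normal diet replicates 2 and 3 and 1.13, 5.31 and 0.933 on the high fat diet, all of them below background. The fitted change of -1.78 (standard error 2.28, limma adjusted p = 0.806) rests on that array and was 0.71 without it, and no fold is given because the high fat arrays gave no signal above background. Acbp2, the next gene on the chromosome, had on that array its lowest signal.

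Acbp6 was near background throughout, at 46.2, 27.0 and 25.1 on the normal diet and 12.9, 25.8 and 23.6 on the high fat diet, where the first value was below background. The groups overlapped, with normal diet replicate 1 the highest and high fat diet replicate 1 the lowest. The log2 mean was 4.98 ± 0.48 with normal and 4.31 ± 0.54 with high fat food (n = 3 per diet), a change of -0.66 (standard error 0.38, 95% interval -1.63 to 0.30, limma adjusted p = 0.631). It was -0.39 without normal diet replicate 1 and -0.35 without high fat diet replicate 1. Acbp4 measured 1.42, 14.6 and 1.03 on the normal diet and 1.65, 0.937 and 5.77 on the high fat diet. All 6 values were below background, so neither a level nor a fold can be read from them.

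Normal diet replicate 1, on which Acbp3, Acbp5 and Acbp6 were highest, also had the highest summed signal of the midgut markers. Of the 18 measured markers 9 were highest on that array, 2 and 3 on normal diet replicates 2 and 3, and 2, 1 and 1 on high fat diet replicates 1, 2 and 3. The single midgut genes given here were chosen after their values were seen. The trypsin gene alphaTry measured 779 there, against 6.70 and 48.6 on normal diet replicates 2 and 3 and 3.48, 23.7 and 19.2 on the high fat diet. The Jonah protease gene Jon65Aiii measured 768, then 12.1 and 61.7, then 4.31, 2.42 and 8.32. Other markers had another order: mag, a lipase gene above background on all arrays, measured 60.8, 18.0 and 44.7 on the normal diet and 45.2, 128 and 177 on the high fat diet, and Jon66Ci was highest on normal diet replicate 2, at 109. Over the 18 measured midgut markers the summed signal was 6968 on normal diet replicate 1, 4142 to 4413 on the remaining normal diet arrays and 4171 to 4546 with high fat food, of which LManII, a mannosidase gene, gave 3146 to 4049. The number of midgut markers above background was 15, 10 and 13 for normal diet replicates 1, 2 and 3 and 7, 12 and 10 for the high fat replicates. With high fat food 15 of 18 averaged lower, against 54.3% of all probe sets, with a median change of -0.75. Over the 6 midgut markers above background on all arrays the median change was -0.14. The second bright array of Acbp5, high fat diet replicate 2, had a midgut sum of 4546, of which LManII alone gave 4049. There 5 of the 18 markers had their second highest signal, among them Jon25Biii at 60.3 and lambdaTry at 34.6, while alphaTry was at 23.7 and Jon65Aiii at 2.42. The part of digestive tract RNA in the Acbp3, Acbp5 and Acbp6 signals was not tested.

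**Figure D4:**
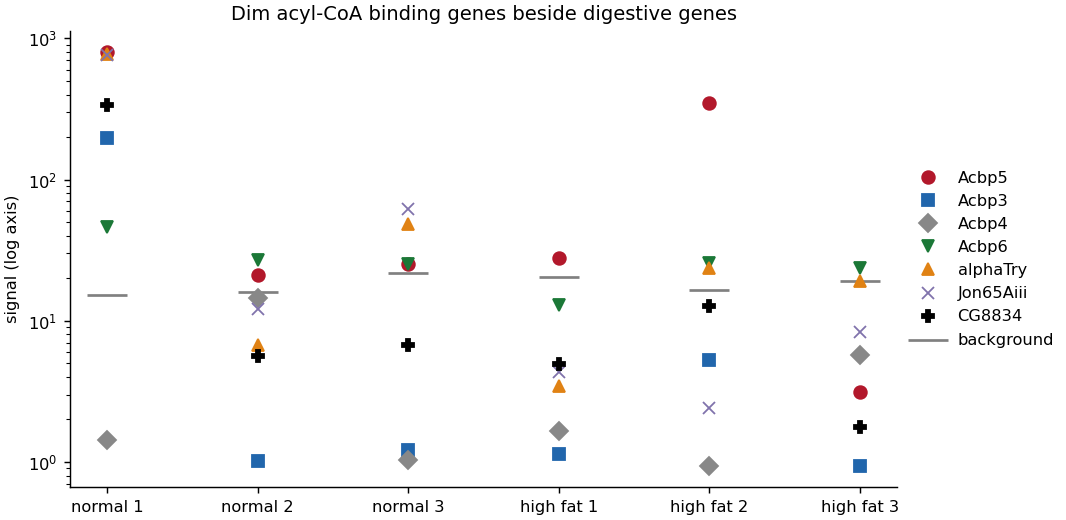
Signal on a log axis of the 4 dim genes and of alphaTry, Jon65Aiii (digestive proteases) and CG8834 (acyl-CoA synthetase family) on each array, with the background of the array as a grey dash. Acbp3 at 197 and Acbp5 at 802 stand beside the digestive genes on normal diet replicate 1, whereas on high fat diet replicate 2 Acbp5 is at 350 and alphaTry at 23.7.

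Among all 18769 probe sets Acbp5 was the only one at least 8-fold above the other 4 arrays on both normal diet replicate 1 and high fat diet replicate 2. Signals below background were raised to it for this count, and the lower of the bright arrays was 12.6 times the highest of the rest. At a 4-fold limit 1 more probe set joined it, CG7953, with 347 and 131 on these arrays and at most 25.5 elsewhere. Acbp3 was one of the 36 probe sets at least 8-fold above all others on normal diet replicate 1 alone, where it was 9.03 times the highest of the rest. That group also held alphaTry, Jon65Aiii and Jon65Aiv, Mal-A1, a maltase gene, and yip7, a protease gene. These counts were chosen after the values were seen and describe the arrays, not the diets.

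**Figure D5:**
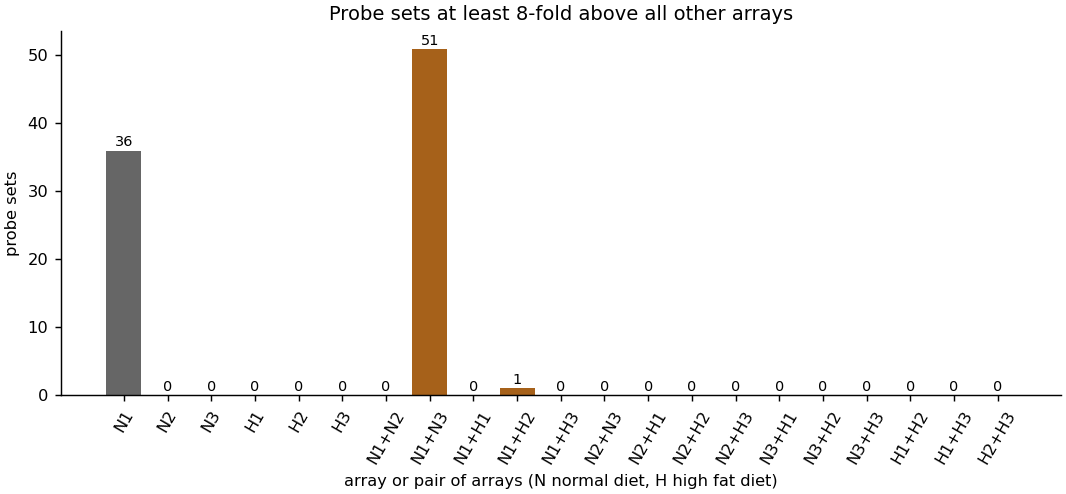
Number of probe sets at least 8-fold above all other arrays, for each single array (grey) and each pair of arrays (brown), N1 to N3 being normal diet and H1 to H3 high fat diet arrays. N1 has 36, among them Acbp3, N1 with N3 has 51, and N1 with H2 has 1, which is Acbp5; all other counts are 0.

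Genes of longer proteins, which carry an acyl-CoA binding domain beside other parts, also had small estimated differences, with 0 of 2 called. CG8814 measured 1563, 1567 and 1584 on the normal diet and 1786, 1767 and 1772 on the high fat diet. Its diets did not overlap, as 1 of the 2 genes, against 8.46% of all probe sets upward. The change of 0.18 (standard error 0.10, limma adjusted p = 0.631) was 1.13-fold. CG14232 measured 545, 514 and 506 and then 552, 518 and 527, a change of 0.03 (standard error 0.11). The other gene of this kind, anox, was not analysed here.

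The acyl-CoA synthetases and fatty acid transporters, which act upstream of the binding proteins, had larger estimated changes in single members. Of the 19 measured, 0 were called by limma, 3 had an unadjusted p under 0.05 with a higher value after high fat feeding (2.95% of all probe sets) and 2 had one with a lower value (4.91% of all probe sets). The diets did not overlap in 3 upward (8.46% of all probe sets) and 5 downward (9.23% of all probe sets). In both counts the 3 upward genes were pdgy and Acsx1L, above background on all arrays, and CG4830, below background on all arrays. The 2 genes with a lower value and an unadjusted limma p under 0.05, CG5568 and Acsx4, were below background on every high fat array. pdgy, an acyl-CoA synthetase, measured 2429, 2376 and 2077 on the normal diet and 3347, 3520 and 3351 on the high fat diet. All 3 high fat values lay well above the normal diet values, at 1.49 times their level (log2 change 0.57, standard error 0.12, limma adjusted p = 0.496). Acsx1L, of the same enzyme family, measured 142, 93.9 and 63.8 and then 202, 240 and 197, which is 2.24-fold with no overlap (log2 change 1.16, standard error 0.32, limma adjusted p = 0.610). Fatp2, a fatty acid transport protein gene, was at 0.33 (standard error 0.15). The list's median change was -0.20, or -0.10 over the 12 genes above background on all arrays, against -0.03 over all probe sets.

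Some dim synthetase genes followed the array patterns described above. CG8834, chosen after its values were seen, measured 338 on normal diet replicate 1 and at most 12.8 on any other array, and like Acbp3 was bright on that array alone. CG5568, likewise chosen after its values were seen, measured 145, 32.6 and 200 on the normal diet and at most 4.80 on the high fat diet, where all arrays were below background. Germ line genes had a similar order: osk, also chosen after its values were seen, measured 1664, 416 and 2124 on the normal diet and 13.6, 16.2 and 19.5 on the high fat diet. All 17 measured germ line and ovary markers averaged lower with high fat food, against 54.3% of all probe sets. Their summed signal was 24594, 6063 and 31375 for normal diet replicates 1, 2 and 3, and 4136 to 4267 with high fat food. None of the 7 binding protein genes had its highest signals on normal diet replicates 1 and 3 together. The part of germ line RNA in the synthetase values was not tested.

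Enzymes that take up the bound acyl-CoA had few large estimates. The carnitine shuttle, which brings long acyl chains into mitochondria, had 0 of 4 genes called and a median change of 0.07. whd, the carnitine palmitoyltransferase of the outer membrane, was at 0.06 (standard error 0.12), CPT2 at 0.08 (0.12), colt, the carnitine carrier, at 0.18 (0.11) and CRAT at 0.02 (0.12). The 11 esterification genes, all above background on all arrays, had 0 called and a median of 0.04. In this list nes, a lysophospholipid acyltransferase, was at -0.23 (standard error 0.11), Agpat1 at -0.71 (0.37) and Agpat3 at 0.21 (0.11). The 5 thioesterase family genes, which release the free acid again, had a median of -0.07 and 0 called, with CG1638 at 0.39 (standard error 0.21), CG16985 at -0.10 (0.12) and CG1774 at -0.14 (0.16).

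Genes of fatty acid synthesis, which supply acyl chains from within the cell, had 0 of 6 called and a median change of -0.13. Of these ATPCL was below background on every array, and over the other 5 the median change was -0.26. ACC, the acetyl-CoA carboxylase that commits carbon to fatty acids, measured 7927, 8706 and 8398 on the normal diet and 6995, 6567 and 7287 on the high fat diet, 0.833 times the normal level (log2 change -0.26, standard error 0.11, limma adjusted p = 0.610). FASN2 was at -0.47 (standard error 0.18) and FASN3 at -1.57 (0.58), both fatty acid synthase genes. These 2 had an unadjusted limma p under 0.05 with a lower value, against 4.91% of all probe sets. The diets did not overlap downward in 2 of the 6 genes, ACC and FASN3, against 9.23% of all probe sets. FASN3 was highest on normal diet replicate 1, at 235 against 52.2 and 123 on normal diet replicates 2 and 3, and 44.6, 30.0 and 43.4 with high fat food.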

How the data were processed

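The authors made the deposited signal intensities, which are linear and have 1 column for each array, with Affymetrix Expression Console, per the submitters' processing notes (version and summarisation method not given in the sources used here). In the files the trimmed mean was 500 on every array, and array medians ranged from 59.0 to 86.2. Values below 1 were set to 1 and log2 was taken. After removal of 183 controls, limma 3.58.1 in R 4.3.3 was fitted to 18769 probe sets of the 6 arrays with diet as the sole term, and p-values were adjusted by Benjamini-Hochberg over all of them (threshold 0.05). Background was defined in earlier work on these data.

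The platform annotation gave 13647 probe sets 1 symbol, 402 several and 4720 none here. The brightest probe set stood for a gene. All 7 genes matched RefSeq by Entrez identifier. Pathway lists are named in full when 4 genes or fewer, otherwise by their 3 smallest p among genes above background on all arrays. The rule covered no marker genes, so single markers were chosen after their values were seen. The genes, lists and tests were chosen with earlier results of these data known. On simulated data, limma recovered 177 of 200 probe sets changed by 2 log2 units and called 11 others of 18769. The changed ones were drawn from probe sets above background on all arrays. Recovery of smaller changes, or of changes in dim genes, was not tested. Alternatives were other scalings, floors, moderation, a replicate block and leaving out arrays. The number of arrays limits the precision.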

Additional observations from a re-analysis of the deposited data

How the results depend on the processing

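No gene of the set was called under any of the alternatives run. With each array centred on its median, Acbp1 was at 0.14 and Acbp2 at 0.03, a reversed sign, while the median of all probe sets was 0.23. The log2 ratio of Acbp4 to Acbp2 holds no measured Acbp4 level: with values below 16 raised to 16 Acbp4 is constant and the 0.24 is the Acbp2 change with its sign turned, and with 16 added it is 0.08. Leaving out 1 array at a time gave changes from -3.09 to 0.71 for Acbp3, -1.11 to 0.81 for Acbp4, -3.01 to 0.44 for Acbp5 and -0.85 to -0.35 for Acbp6. The ratios to Acbp2 then ranged from -2.94 to 1.11 for Acbp3 and -0.92 to 0.96 for Acbp4, both mostly values below background, -2.76 to 0.84 for Acbp5 and -0.65 to 0.01 for Acbp6. From 1 to 3 genes did not overlap between diets, with 3 without normal diet replicate 1 (28.2% of all probe sets) or without high fat diet replicate 2 (28.0%) and 2 without normal diet replicate 3 (24.4%), and 0 to 1 had an unadjusted p under 0.05, the 1 being Acbp2 without normal diet replicate 1. Without normal diet replicate 1 and high fat diet replicate 2, chosen after seeing the data, 4 genes did not overlap, against 41.4% of all probe sets, and Acbp2 was at -0.41. Over all probe sets 26 were called with trend and robust moderation and 167 without normal diet replicate 2. Same-numbered arrays did not deviate together (correlations -0.07, 0.00 and 0.03 over 10703 probe sets). With the replicate number as a block, the Acbp2 change was -0.24, as without it, and no call changed. The causes were not tested.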
